A study of Mus musculus with 12 samples.

Results

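Heat shock chaperones are described here through 10 mouse genes chosen by name: Hsph1, Hspa1b, Hspa5, Hspa8, Hsp90aa1, Hsp90ab1, Hspd1, Hspe1, Dnaja1 and Dnajb1. Every probe set whose only annotated symbol was 1 of these was taken from both chip designs, whatever its signal. This gave 25 probe sets, 21 on MOE430A and 4 on MOE430B, for 9 of the 18193 genes named on the arrays. No probe set in the annotation used names Hsp90ab1 alone, and that gene was not analysed here.

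The study measured mouse bone marrow stem cells sorted by flow cytometry into a fraction without CD49 (CD49-) and a fraction with it (CD49+), with 3 samples of each. CD49 is a name shared by some integrin alpha chains, which are subunits of cell adhesion receptors. The labels do not say which chain was stained. All samples were lysates of about 30 cells of an estimated purity of 97.03%, taken 0 h after the sort from a serum-containing salt solution, and amplified by global PCR into cDNA with a primer on both ends. No treatment, strain, sex, age or genotype is given in the sources used here, and nothing says that samples of 1 group came from separate animals or sorts, so that the p-values below reflect no more than the spread among the samples at hand, part of which may be technical. Both Affymetrix designs were hybridised with each of the 6 cDNA samples, for 12 arrays in all. The titles carry the prefix MZ1484 or MZ1468, called submissions here. Replicate 1 of each group belongs to MZ1484, and replicates 2 and 3 belong to MZ1468.

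Chaperones bind unfolded stretches of other proteins and help them to fold, to stay soluble or to be degraded. Hsp70 proteins do this in cycles of ATP binding and hydrolysis, in which J-domain proteins deliver clients and start hydrolysis and nucleotide exchange factors release them, while Hsp90 acts on nearly folded clients such as kinases and steroid receptors. Some members are made at all times, and others are induced by heat shock factor 1 when misfolded protein builds up in the cytosol or by the unfolded protein response when it builds up in the endoplasmic reticulum. In blood stem cells, protein synthesis is kept low, and protein quality control is studied as a property of these cells.

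The promoters of 4 members are shown because these genes had the steadiest signal (Hspe1), no signal above background (Hspa1b), and the widest swings among samples (Hsph1 and Hspa5). Each line is the 150 bases that end just before an annotated start, 5′ to 3′ on the gene's strand, from RefSeq on GRCm38.p6. For Hsph1 that start is an inner one, and the line lies within the annotated gene, which reaches to base 149636498. Capitals mark a match to GAANNTTC or TTCNNGAA, each an inverted pair of the units that heat shock factors bind, or, in Hspa5, to the endoplasmic reticulum stress element, which is CCAAT and CCACG with 9 bases between them. Both strands were searched, and matches of the first 2 patterns can overlap, as they do in Hspe1.
Hspe1 (chr1:55087998-55088147, plus strand): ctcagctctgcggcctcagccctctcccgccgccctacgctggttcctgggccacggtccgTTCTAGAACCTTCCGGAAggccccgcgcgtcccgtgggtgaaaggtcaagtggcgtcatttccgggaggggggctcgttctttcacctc
Hspa1b (chr17:34959239-34959388, minus strand): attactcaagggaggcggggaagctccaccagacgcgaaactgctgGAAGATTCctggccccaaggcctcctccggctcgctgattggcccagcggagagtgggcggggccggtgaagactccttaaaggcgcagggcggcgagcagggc
Hspa5 (chr2:34771940-34772089, plus strand): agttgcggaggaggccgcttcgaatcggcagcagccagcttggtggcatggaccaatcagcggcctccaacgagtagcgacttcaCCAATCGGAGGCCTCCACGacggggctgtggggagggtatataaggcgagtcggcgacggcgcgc
Hsph1 (chr5:149636337-149636486, minus strand): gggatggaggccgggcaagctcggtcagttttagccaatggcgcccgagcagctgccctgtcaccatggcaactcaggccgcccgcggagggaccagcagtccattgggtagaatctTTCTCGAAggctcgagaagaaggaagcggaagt

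Over 250 bases upstream, 5 of the 7 members with a promoter entry held a heat shock pair in at least 1 of their windows: Hsph1, Hspa1b, Hspd1, Hspe1 and Dnaja1. Counted by window, it was 6 of 12 member windows, some of which overlap. The matches of Hsph1 and Hspd1 lie within the annotated gene, ahead of inner starts. Either pair occurred in 12.8% of all 32851 windows of that length, GAANNTTC in 6.69% and TTCNNGAA in 7.17%. The endoplasmic reticulum element occurred in 0.113% of windows and, among the members, in Hspa5. Neither pattern was in the windows of Dnajb1. Hspd1 and Hspe1 lie head to head on chromosome 1, and 1 of 2 annotated Hspd1 starts, the inner one, is 216 bases from the Hspe1 start. The run in capitals under Hspe1 lies in the windows of both these starts and is the match counted for Hspd1 as well. With the bases past the starts, their 2 promoter entries share 285 bases. The other Hspd1 start, at base 55088243, lies past the Hspe1 start at 55088148, so that the genes overlap there, and its window held 0 heat shock pairs. A match is a description of these letters and not a measured binding site.

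The values are the authors' MAS5 signals, linear and in arbitrary units, with about the same trimmed mean on every array. As no detection calls came with them, each array's brightest control probe set for a Bacillus transcript, absent from mouse cells, served as its background bound: 78.0 to 149 on MOE430A and 844 to 1466 on MOE430B. Probe sets above it made up 39.5% to 61.1% on MOE430A, lowest in CD49+ replicate 1, and 16.5% to 28.6% on MOE430B. The ratio of the 3′ to the 5′ probe set on MOE430A was 13.9 to 1146 for Gapdh. For Actb it was lower in MZ1484 (2.63, 7.48) than in every MZ1468 sample (8.83 to 19.8). The MOE430A share above the bound was likewise lower in MZ1484 (39.5%, 46.9%) than in MZ1468 (49.7% to 61.1%). On MOE430B both measures overlapped between submissions, as did the Gapdh ratio on MOE430A. Of 12 haematopoietic stem cell markers, 10 were tested and 6 of these were above the bound in all 6 samples. Of the 4 erythroid markers with a probe set, 0 passed the filter on low signals, and of the 5 T cell markers 1 did. The summed signal of the B cell markers was 983 to 8382, the span being 983 to 1914 in MZ1484. The scan records give each submission 1 scan day of its own on both designs. The submissions shared 0 stations on MOE430A and 1 on MOE430B. Submission therefore cannot be told apart from scan day on either design, nor from station on MOE430A.

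Of the 25 chaperone probe sets, 13 were above the bound in all 6 samples, 7 in 1 to 5 samples and 5 in none. The 13 represent 6 genes, namely Hspa8, Hsp90aa1, Hspd1, Hspe1, Dnaja1 and Dnajb1. The 5 in none are all 3 for Hspa1b and 2 of 5 for Hsp90aa1. In all, 18 probe sets of 8 genes had a mean log2 value in the upper part of their design and were tested, 14 on MOE430A and 4 on MOE430B. The 7 others are given by their values. MOE430A and MOE430B were scaled separately, and levels of different probe sets were not compared, except to choose 1 probe set a gene for the lists below. That was the tested probe set with the highest mean log2 value over both designs, a choice that the separate scaling can affect.

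**Figure D1:**
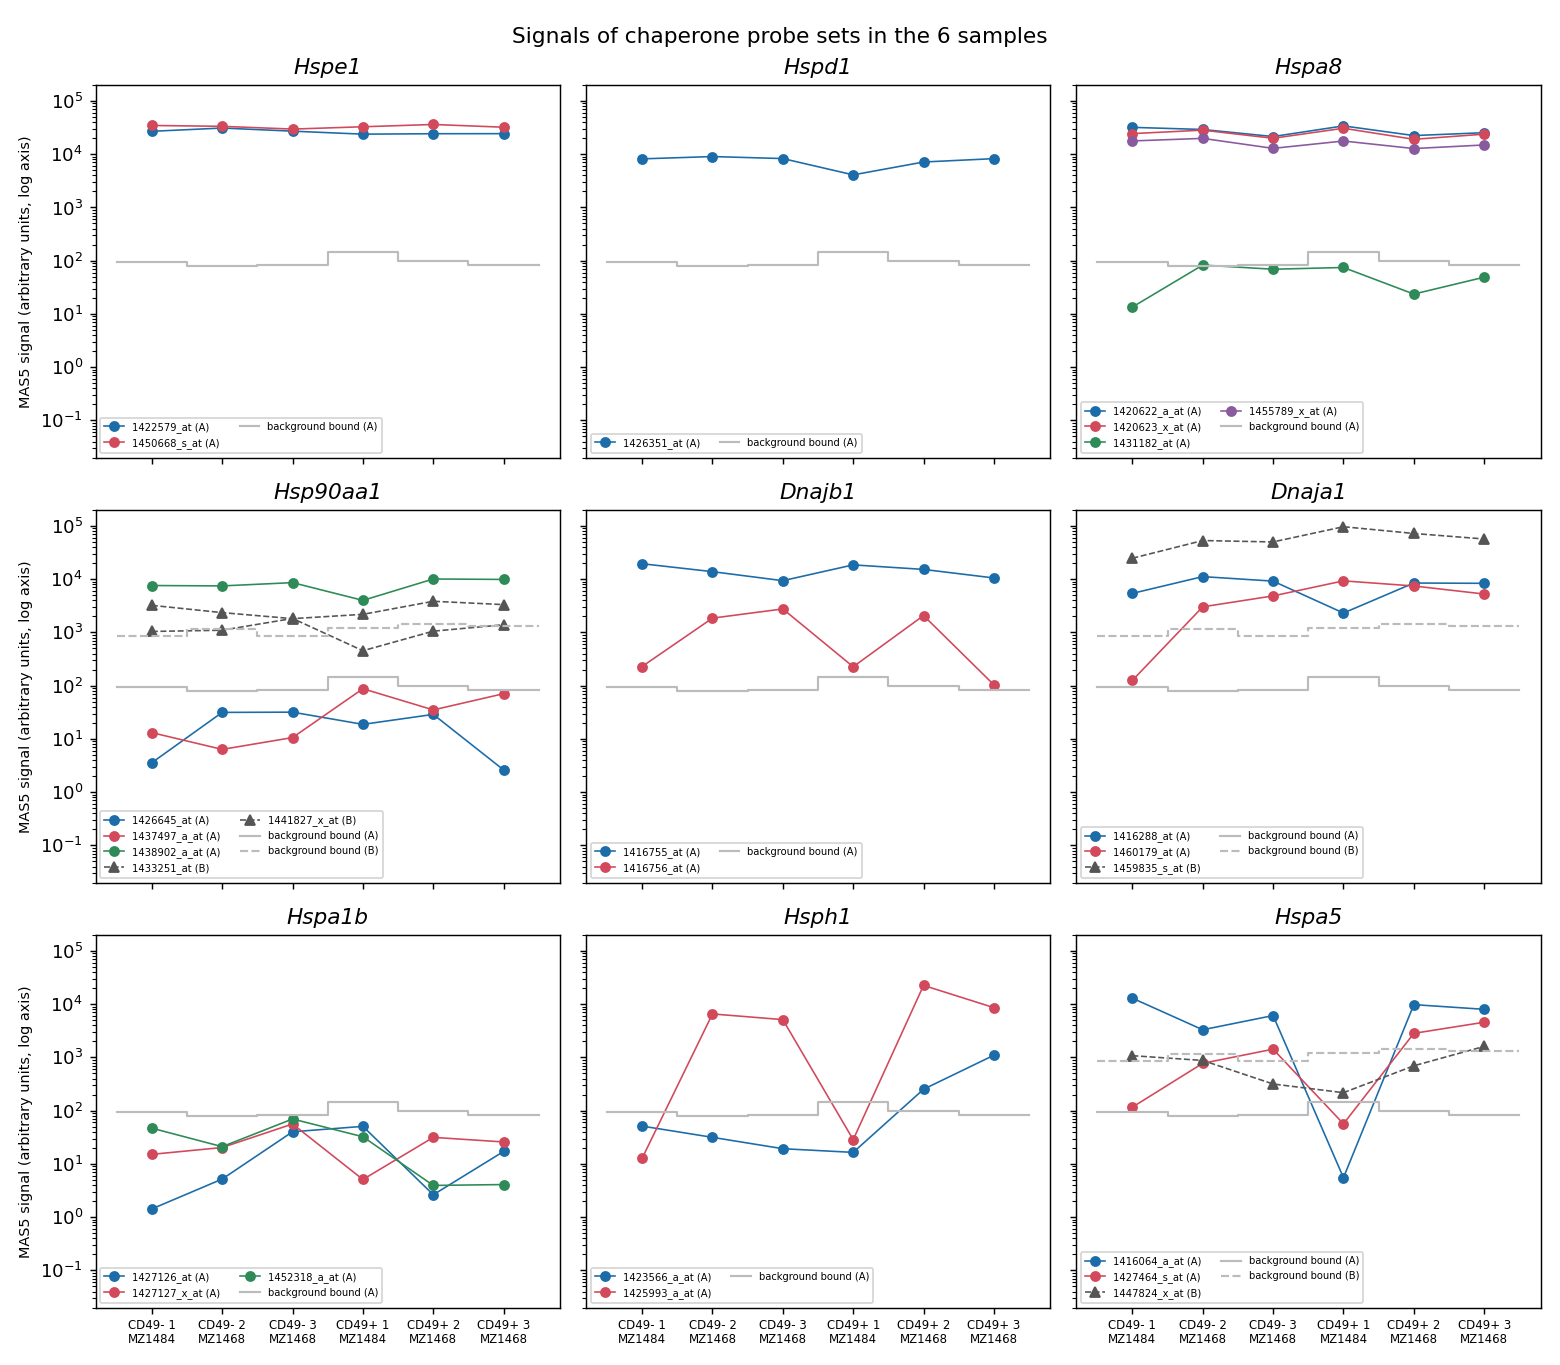
MAS5 signal (log axis, arbitrary units) of the 25 chaperone probe sets in the 6 samples, with circles for MOE430A, triangles for MOE430B (for Hsp90aa1 the upper triangles are 1441827_x_at) and grey steps for each array's background bound. Hspe1 and Hspa8 run level, Hspa1b stays under the bound, and Hsph1 probe set 1425993_a_at lies at 12.7 and 28.6 in MZ1484 and between 5131 and 22526 in MZ1468.

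Of the mitochondrial chaperonin, the Hspe1 probe sets gave a steady signal, while Hspd1 varied more. Hspe1 encodes the lid, Hsp10, and Hspd1 the barrel, Hsp60, of the machine that folds proteins imported into the matrix. The Hspe1 probe set 1450668_s_at gave 34647, 33397 and 29634 in CD49- replicates 1 to 3 and 32765, 36185 and 32136 in CD49+ replicates 1 to 3. The other, 1422579_at, gave 26918, 31016 and 27095 in CD49- and 23794, 24256 and 24322 in CD49+ samples. The first did not separate any samples, while the second was lower in all CD49+ samples. The SD of log2 values over the 6 samples was 0.10 and 0.15. Only 0.168% and 0.751% of all tested probe sets on that design had a lower SD, and 1.24% and 5.92% of the brightest decile. Hspd1 (1426351_at) gave 8176, 9038 and 8284 in CD49- and 4093, 7137 and 8257 in CD49+ samples, with CD49+ replicate 1 the lowest and an SD of 0.42, below which lay 13.6% of all tested probe sets. Over the 6 samples, log2 values of Hspd1 correlated with the Hspe1 probe sets at 0.62 (1422579_at) and -0.07 (1450668_s_at), a description of 6 points that share arrays and amplification.

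The cytosolic Hsp70 genes differed in whether their probe sets passed the bound. Hspa8 encodes the constitutive Hsc70, which folds new proteins and strips clathrin coats. Its probe set 1420622_a_at gave 31942, 29137 and 21462 in CD49- and 34009, 22397 and 25347 in CD49+ samples. The MZ1484 samples were the 2 highest. Probe sets 1420623_x_at (19045 to 30726) and 1455789_x_at (12768 to 19834) followed it, with correlations of 0.88 to 0.90 among the 3 over 6 samples. The remaining one, 1431182_at, passed the bound in 1 sample only (82.8 in CD49- replicate 2). Hspa1b encodes the stress-inducible Hsp70, and its 3 probe sets gave 1.43 to 69.8, at or below the bound in all 6 samples. Hspa1b has a near-identical neighbour, Hspa1a, and these probes may not tell the genes apart.

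Hsph1 encodes Hsp110, a nucleotide exchange factor for Hsp70 that also holds unfolded proteins. Probe set 1425993_a_at gave 12.7, 6556 and 5131 in CD49- and 28.6, 22526 and 8606 in CD49+ samples. Both MZ1484 samples were below the bound, and all 4 MZ1468 samples were far above it. The second probe set, 1423566_a_at, gave 51.4, 31.6 and 19.3 in CD49- and 16.5, 253 and 1101 in CD49+ samples. It passed the bound only in the 2 CD49+ samples of MZ1468, so that the 2 probe sets separated the samples differently.

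Hspa5 encodes BiP, the Hsp70 of the endoplasmic reticulum and a standard reporter of the unfolded protein response. Probe set 1416064_a_at gave 12964, 3309 and 6114 in CD49- and 5.52, 9809 and 8008 in CD49+ samples. It was thus below the bound in CD49+ replicate 1 and well above it in the other 5 samples. Probe set 1427464_s_at gave 116, 775 and 1429 in CD49- and 56.6, 2834 and 4582 in CD49+ samples, with both MZ1484 samples the lowest. On MOE430B, 1447824_x_at gave 218 to 1611 and passed the bound in 2 samples, CD49- replicate 1 and CD49+ replicate 3. The 3 probe sets correlated at 0.45 to 0.69.

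Hsp90aa1 encodes the stress-inducible cytosolic Hsp90. Its brightest probe set on MOE430A, 1438902_a_at, gave 7608, 7479 and 8622 in CD49- and 4001, 10091 and 9903 in CD49+ samples. CD49+ replicate 1 was the lowest and the other CD49+ samples the highest. On MOE430B, 1441827_x_at gave 1816 to 3848, above the bound in all samples, and 1433251_at gave 454 to 1830, above it in 3. The latter correlated with 1438902_a_at at 0.85, and with 1441827_x_at at -0.01. The 2 dim probe sets on MOE430A gave 2.61 to 31.8 (1426645_at) and 6.36 to 87.7 (1437497_a_at).

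The J-domain proteins were read differently by their own probe sets. Dnaja1 encodes a farnesylated partner of Hsc70. Its probe set 1416288_at gave 5412, 11180 and 9200 in CD49- and 2315, 8474 and 8368 in CD49+ samples, with both MZ1484 samples the lowest. Probe set 1460179_at gave 126, 3027 and 4853 in CD49- and 9304, 7459 and 5264 in CD49+ samples, and 1459835_s_at on MOE430B gave 24744, 53204 and 50094 and 96693, 72250 and 56910. In both of these, every CD49+ sample was above every CD49- sample, and CD49- replicate 1 was the lowest of all. These 2 correlated at 0.93 with each other, and at -0.01 and -0.31 with 1416288_at. Dnajb1 encodes Hdj1, the heat-inducible J-domain partner of Hsp70. Its probe set 1416755_at gave 19525, 13853 and 9377 in CD49- and 18576, 15267 and 10545 in CD49+ samples, with the MZ1484 samples the highest. Its other probe set, 1416756_at, gave 229, 1857 and 2765 in CD49- and 227, 2075 and 104 in CD49+ samples, with a correlation of -0.31 to the first.

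**Figure D2:**
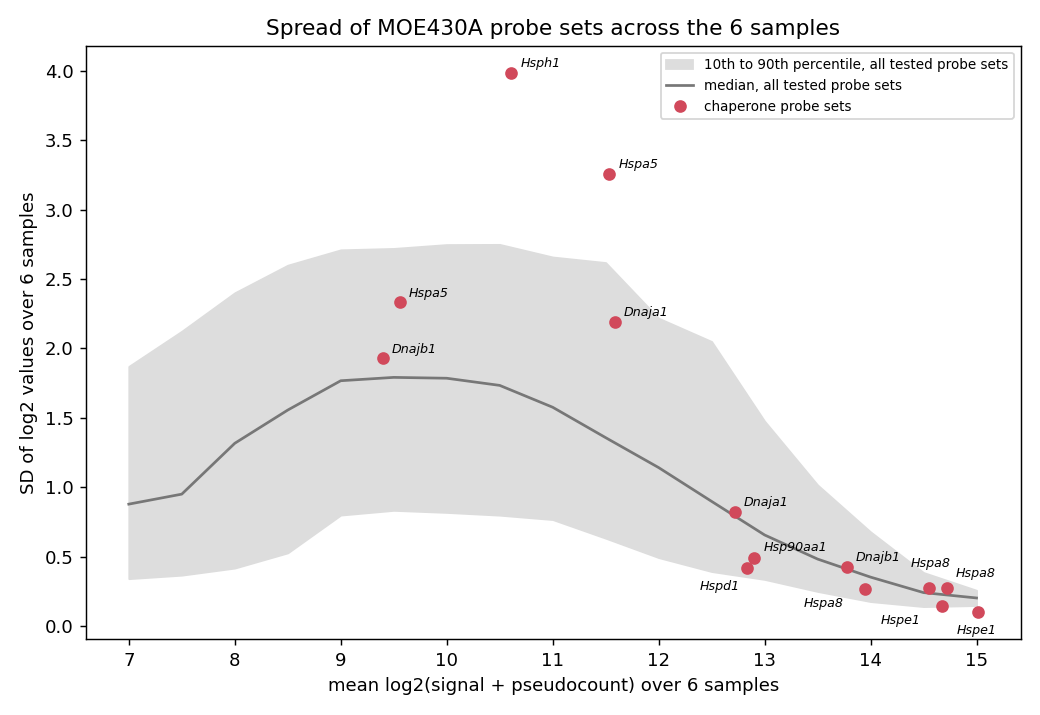
SD of log2(signal + pseudocount) over the 6 samples against its mean for the 14 tested chaperone probe sets of MOE430A (red points), with the median (line) and the 10th to 90th percentile (band) of all tested probe sets of like mean. The probe sets of Hspe1 lie near or below the lower edge of the band (SD 0.10 and 0.15), while Hsph1 (3.99) and 1 probe set of Hspa5 (3.26) lie above it.

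The first comparison asks whether chaperone mRNA differed between CD49+ and CD49- cells. No chaperone probe set passed the test. Of the 18 tested, 8 were higher and 10 lower in CD49+ samples, with a median difference of -0.03 on the log2(signal + pseudocount) scale, and 14 differed by less than 1 on that scale. The smallest unadjusted p was 0.110 and every adjusted p was 0.999 or above (limma with Benjamini-Hochberg adjustment within each design). Nor did any other probe set pass (0 of 11313 on MOE430A and 0 of 11256 on MOE430B, or 0% on both), with 272 and 414 at an unadjusted p under 0.05 (2.4% and 3.68%), none of them a chaperone. The split of 8 and 10 became 10 and 8 with arrays centred on their median and 7 and 11 with quantile normalisation, which moved the median of all tested MOE430A probe sets from -0.07 to 0.05 and 0.02.

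In 3 of the 18 probe sets the groups did not overlap, where 6.92% of all tested probe sets on MOE430A and 9.26% on MOE430B had none. Dnaja1 1460179_at was higher in CD49+ samples by 2.45 ± 1.35 (SE, 3 samples a group), and its partner 1459835_s_at by 0.86 ± 0.54. CD49- replicate 1 set most of the former: MZ1484 alone gave 5.93 and MZ1468 alone 0.70, and 0.89 without that sample. For 1459835_s_at the differences were 1.96 and 0.31. The remaining Dnaja1 probe set, 1416288_at, went the other way, by -0.58 ± 0.66. Hspe1 1422579_at was lower by 0.23, with values of -0.18 within MZ1484 and -0.25 within MZ1468, whereas Hspe1 1450668_s_at differed by 0.05 ± 0.12.

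Hspa5 1416064_a_at had the lowest difference of the tested MOE430A chaperone probe sets, -2.23 ± 2.15, and this came from CD49+ replicate 1. MZ1484 alone gave -8.64 and MZ1468 alone 0.97, and the difference was 0.47 without that sample. CD49+ replicate 1 was below its bound of 149, so that -8.64 depends on the pseudocount. In a fit of the difference between submissions, with 1 MZ1484 sample a group, 2.17% of MOE430A probe sets passed. CD49+ replicate 1 also had the lowest signal of all 6 for Hspd1, Hsp90aa1 1438902_a_at and Dnaja1 1416288_at, and the fewest probe sets above the bound on MOE430A (39.5%). The part of this in the result was not tested. Of the 18 probe sets, 9 had opposite signs in the 2 submissions, 3 were higher in CD49+ samples in both and 6 lower in both.

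The others were close to 0 or wide. Hspa8 differed by -0.02 ± 0.22 (1420622_a_at), 0.01 ± 0.23 (1420623_x_at) and -0.14 ± 0.27 (1455789_x_at), and Dnajb1 1416755_at by 0.08 ± 0.37. Hsph1 1425993_a_at differed by 1.00 ± 2.79. With the submission as a block its difference stayed at 1.00 with an adjusted p of 0.864, and no probe set of either design passed. Among the untested probe sets, Hsp90aa1 1437497_a_at did not overlap between the groups (13.1, 6.36 and 10.6 in CD49-, 87.7, 35.1 and 70.8 in CD49+), with an unadjusted p of 0.00522 and an adjusted p of 1.00 in the fit with no filter. All of these are at or below the bound, so that no fold is given.

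**Figure D3:**
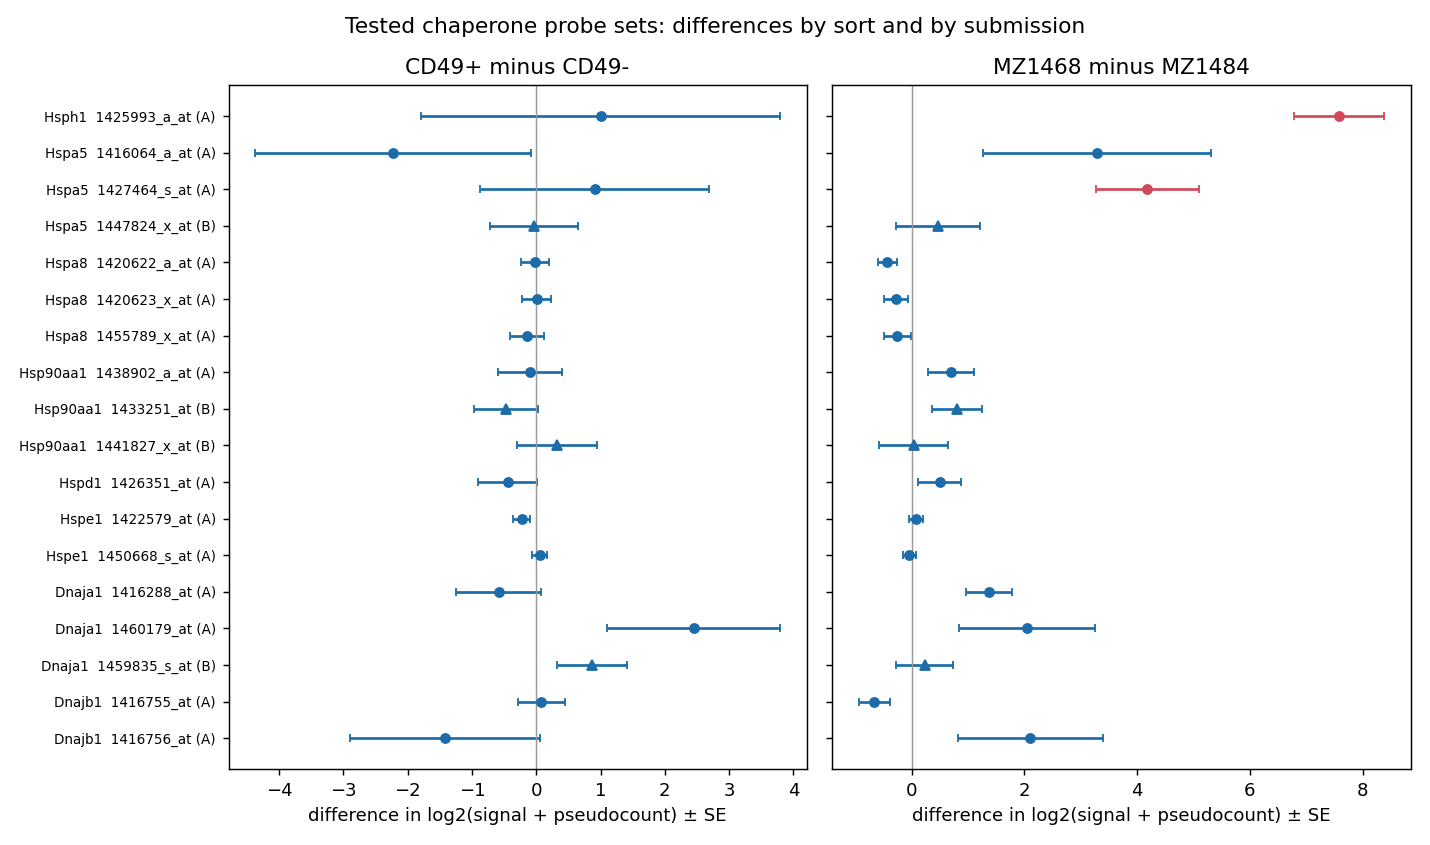
Differences of the 18 tested chaperone probe sets in log2(signal + pseudocount), with the moderated SE as bars, between CD49+ and CD49- samples (left) and between MZ1468 and MZ1484 samples (right), with triangles for MOE430B and red for an adjusted p at or under 0.05. No probe set is red on the left, and Hsph1 1425993_a_at (7.58) and Hspa5 1427464_s_at (4.18) are red on the right.

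The second comparison sets the 4 MZ1468 samples against the 2 MZ1484 samples, with the CD49 group as a term. Of the chaperones tested, Hsph1 rose most: 1425993_a_at was at least 75.2-fold higher in MZ1468, from a mean log2 value of 5.55 ± 0.34 (SD, n = 2) to 13.14 ± 0.93 (n = 4). Hspa5 1427464_s_at rose by 4.18 ± 0.92 (SE), from 6.77 ± 0.55 to 10.95 ± 1.10. Its MZ1484 signals were 116 and 56.6, against bounds of 96.0 and 149, so that the size of the difference depends on the pseudocount. It was 4.57 with a pseudocount of 1 and 3.46 with the median signal. Hsph1 1425993_a_at and Hspa5 1427464_s_at were the 2 of 18 chaperone probe sets that passed the test, both higher (11.1%). In all, 839 of 11313 probe sets on MOE430A (7.42%) and 45 of 11256 on MOE430B (0.4%) passed, 6.26% and 0.302% of the tested ones as higher.

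The fitted difference of Hsph1 was 7.58 ± 0.80 (limma, unadjusted p = 6.31e-05, adjusted p = 0.0212), 7.20 among CD49- and 7.97 among CD49+ samples. It kept its call with median centring (7.32) and quantile normalisation (7.73). The call was lost without CD49- replicate 2 (7.56, adjusted p = 0.112), CD49- replicate 3 (7.72, 0.117) or CD49+ replicate 3 (7.83, 0.066), fits in which no MOE430A probe set passed. The second Hsph1 probe set, untested, was below the bound in MZ1484 and in both CD49- samples of MZ1468. The adjusted p of Hspa5 1427464_s_at was 0.0487. This call was lost with median centring (3.91, adjusted p = 0.066), with quantile normalisation (3.67, 0.085) and without any 1 of 5 of the samples (2.91 to 4.54, 0.065 to 0.162), all but CD49- replicate 1.

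For the second Hspa5 probe set, 1416064_a_at, the difference was 3.29 ± 2.03 (adjusted p = 0.348), -1.52 among CD49- and 8.09 among CD49+ samples. The third, on MOE430B, differed by 0.46 ± 0.75. The 3 Hspa5 probe sets therefore did not give 1 value for the gene. The level of mRNA per cell, the share of cells that hold it and technical differences between submissions cannot be told apart in these pools.

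Groups did not overlap in 6 of 18 chaperone probe sets, against 37.4% of all tested on MOE430A and 25.8% on MOE430B. Besides the 2 that passed, Dnaja1 1416288_at was higher in MZ1468 by 1.38 ± 0.41 (unadjusted p = 0.0145, adjusted p = 0.0985) and Hsp90aa1 1433251_at by 0.80 ± 0.44. The latter was near the bound, above it in 1 MZ1484 and 2 MZ1468 samples, and its nearest log2 values were 10.21 in MZ1484 and 10.22 in MZ1468. Hspa8 1420622_a_at was lower by 0.43 (SE 0.16, unadjusted p = 0.0366, adjusted p = 0.160), and Dnajb1 1416755_at by 0.66 (SE 0.28, adjusted p = 0.196). Of the 18, 4 had an unadjusted p under 0.05, against 26.5% of all tested on MOE430A and 14.9% on MOE430B.

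Over the 18 probe sets, 13 were higher and 5 lower in MZ1468, with a median of 0.48. The median of all tested probe sets was 0.43 on MOE430A and 0.06 on MOE430B. Median centring moved the former to 0.16 and quantile normalisation to 0.00, with chaperone medians of 0.30 (11 higher, 7 lower) and 0.58 (14 higher, 4 lower). Hspe1 was near 0 here as well, with differences of 0.07 ± 0.12 (1422579_at) and -0.04 ± 0.11 (1450668_s_at), the former at -0.19 with median centring and the latter at 0.24 with quantile normalisation. Hspd1 differed by 0.49 ± 0.38 and Hsp90aa1 1438902_a_at by 0.70 ± 0.41.

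Other genes of the chaperone network were described from lists, with 1 probe set a gene and beside all 12019 genes tested in this way, of which 3.34% passed as higher in MZ1468 and 0.716% as lower. Among the 33 of 42 cytosolic chaperones and cochaperones that were tested, 21 were higher and 12 lower in MZ1468 (median 0.30, all genes 0.21), and 2 passed, both higher. With median centring and with quantile normalisation 18 were higher and 15 lower, with medians of 0.04 and 0.08, and 1 passed under each. Fkbp4, an immunophilin that joins Hsp90 to steroid receptors, gave 632 and 290 in MZ1484 against 5030 to 13309 in MZ1468, a difference of 4.09 ± 0.72 (adjusted p = 0.0304). Dnajc5, the J-domain protein of synaptic and secretory vesicles, gave 805 and 512 against 4109 to 6098 (2.91 ± 0.61, adjusted p = 0.0443). Neither gene overlapped between submissions. Dnajc5 lost its call with median centring and with quantile normalisation (adjusted p = 0.074 and 0.0935), while Fkbp4 kept it (0.0459 and 0.0402). St13, the Hsp70-interacting protein Hip, was lower at -1.03 ± 0.25 (adjusted p = 0.149).

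Of 15 mitochondrial chaperones and proteases, 14 were tested, and 12 were higher and 2 lower in MZ1468, with a median of 2.09 (1.83 with median centring and 1.08 with quantile normalisation). Grpel1, the nucleotide exchange factor of the matrix Hsp70, was the only 1 to pass, at 2.57 ± 0.56 (adjusted p = 0.0487), with 1327 and 906 in MZ1484 and 5466 to 8688 in MZ1468. It did not pass with either other scaling (adjusted p = 0.0847 and 0.0781). Its paralog Grpel2 differed by 2.37 ± 0.46 (adjusted p = 0.105) and Htra2, a protease of the intermembrane space, by 3.23 ± 0.82 (adjusted p = 0.0688). The summed MOE430A signal of this list was 36139 and 38921 in MZ1484 and 56932 to 77784 in MZ1468, without overlap.

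The cytosolic chaperonin TRiC, which folds actin and tubulin, and its partner prefoldin were above the bound in all 6 samples for 14 of 14 genes. Here 9 were higher and 5 lower in MZ1468, with a median of 0.16, and 0 passed. The median was -0.10 with median centring (6 higher, 8 lower, 0 passed) and 0.28 with quantile normalisation (12 higher, 2 lower, 1 passed as higher). Cct3, a TRiC subunit, gave 535 and 6196 in MZ1484 against 15828 to 21307 in MZ1468 (3.35 ± 0.74, adjusted p = 0.0505). The samples did not overlap, and CD49- replicate 1 was far below the rest.

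Of 31 genes of the endoplasmic reticulum chaperones and the unfolded protein response, 24 were tested, 17 higher and 7 lower in MZ1468 with a median of 0.58, and 0 passed, with 7 at an unadjusted p under 0.05 (22.7% of all genes). The counts were 14 higher and 10 lower with either other scaling, with medians of 0.37 (median centring, 0 passed) and 0.20 (quantile normalisation, 1 passed as lower). Xbp1, a transcription factor of that response, gave 363 and 215 in MZ1484 and 2529 to 6060 in MZ1468 (3.55 ± 0.80, adjusted p = 0.0509). Ern1, which encodes the sensor IRE1 that splices Xbp1 mRNA, gave 127802 and 152185 in MZ1484 and 7068 to 17487 in MZ1468 (-3.72 ± 0.61, adjusted p = 0.0787). These 2 genes were separated by submission in opposite directions, and neither passed. Of 5 heat shock factor genes, 2 were tested. Hsbp1, which binds heat shock factor 1, differed by -0.02 ± 0.22, and Hsf4 by 0.14 ± 0.56.

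By CD49, 0 genes of these lists passed (0% of all genes, with 354 of 12019 or 2.95% at an unadjusted p under 0.05). The medians were -0.32 for the cytosolic list (11 higher, 22 lower), 0.01 for TRiC and prefoldin, 0.04 for the endoplasmic reticulum list and -0.10 for the mitochondrial list, beside -0.04 for all genes. The other scalings (median centring, then quantile normalisation) gave -0.25 and -0.19, 0.10 and -0.04, 0.14 and 0.07, and 0.02 and -0.01 for these lists in that order. Hspa14, a ribosome-associated Hsp70, was the cytosolic gene with the smallest p, at -2.75 ± 0.74 (unadjusted p = 0.00812, adjusted p = 0.999), with 2743, 1421 and 5919 in CD49- and 136, 159 and 940 in CD49+ samples. All CD49+ samples were below the bound of their array, so that the fold in mean signal is given only as at least 2.15 for these samples. CD49- replicate 2 was near its own bound of 1148, and the gene did not pass.

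Other gene groups moved with the submission as well. Of 20 immediate early genes tested, 18 were lower in MZ1468 with a median of -5.09, and 11 passed as lower. Their summed MOE430A signal was 196538 and 197527 in MZ1484 and 12059 to 18213 in MZ1468. Of 22 genes of G2 and mitosis, 22 were higher (21 with either other scaling) with a median of 4.25, and 11 passed. Their summed signal was 13100 and 16119 in MZ1484 and 68483 to 148312 in MZ1468. The summed signal of 8 granulocyte and monocyte markers, 2 of them above the bound in all 6 samples, was 24026 and 44861 in MZ1484 and 4021 to 11696 in MZ1468, and that of the stem cell markers 44445 and 70271 against 20787 to 26398. The sum of 6 megakaryocyte markers was also higher in MZ1484 (7866 and 9267 against 1201 to 4842). Most of that was Pf4, at 5929 and 7419 in MZ1484. Of the 4 megakaryocyte markers tested, 2 were higher and 2 lower in MZ1468 (median -0.32), and all 4 were lower with either other scaling. The sum of 5 T cell markers was 562 and 566 in MZ1484 against 279 to 453 in MZ1468. These sums are small beside a bound of 78.0 to 149 for each probe set, and may reflect background. The 1 T cell marker tested, Cd8a, was read on MOE430B by a probe set outside that sum. That of 7 stromal and endothelial markers was 838 and 2820 against 334 to 613. Of the 2820, in CD49- replicate 1, Cxcl12 gave 1858, its only signal above the bound. No tested megakaryocyte or T cell marker was above the bound in all 6 samples, and 1 stromal marker was. The B cell sums overlapped. None of the calls in these lists held without CD49- replicate 2, CD49- replicate 3 or CD49+ replicate 3, fits in which 0 probe sets passed on either design. The MZ1468 samples were also those high in Hsph1, Hspa5 1427464_s_at, Fkbp4 and Grpel1, as they were in the Actb ratio and the share of probe sets above the bound on MOE430A. The part of these groups and measures in those results was not tested.

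**Figure D4:**
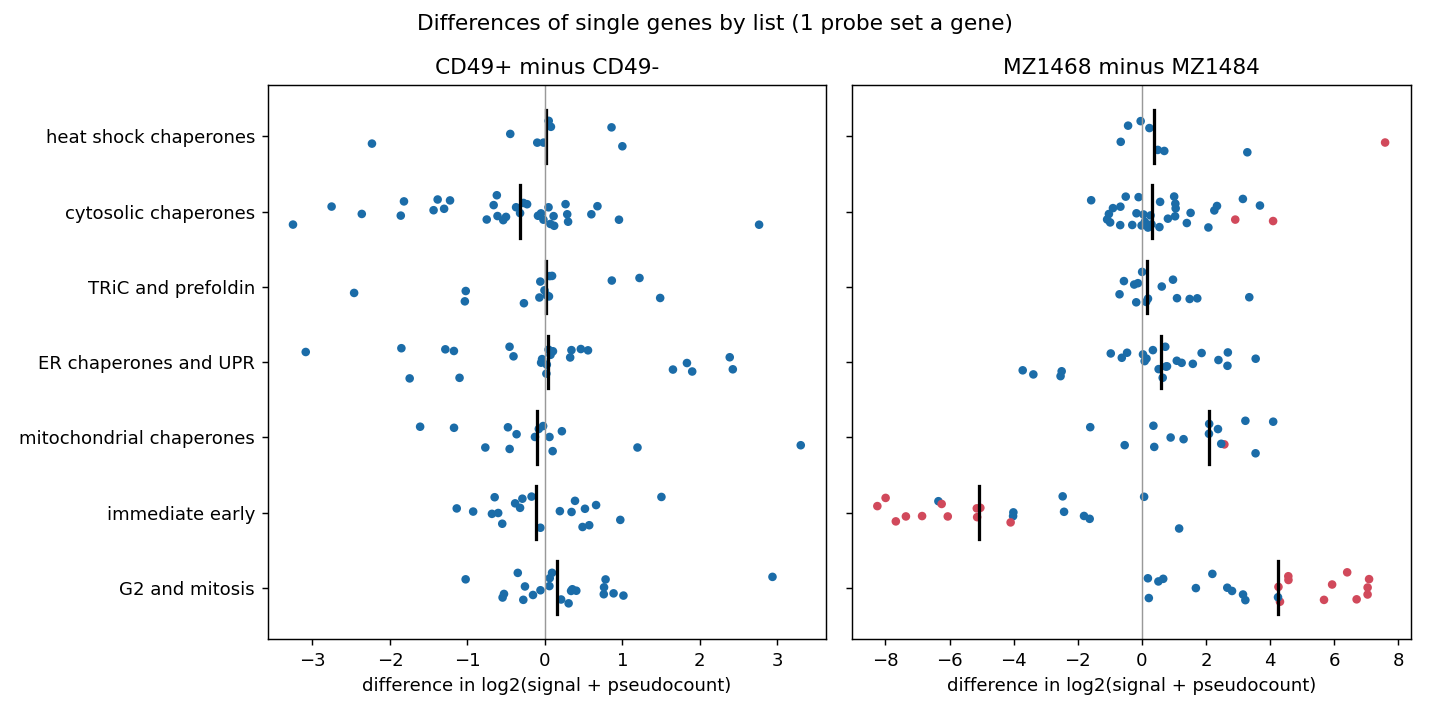
Difference of each gene in log2(signal + pseudocount), 1 probe set a gene, between CD49+ and CD49- samples (left) and between MZ1468 and MZ1484 samples (right), by list, with the list's median as a black bar and red for an adjusted p at or under 0.05. On the left 0 genes are red, and on the right the medians run from -5.09 for immediate early genes to 4.25 for G2 and mitosis genes, with 0.36 for the 8 heat shock chaperone genes. Dnaja1 is drawn by 1459835_s_at of MOE430B (0.23 on the right), where 1416288_at gave 1.38 and 1460179_at 2.05.

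The genes whose log2 values followed each chaperone most closely over the 6 samples were listed as a description. They came from about 10394 probe sets of MOE430A, where correlations of 6 points reach high values easily. Hsph1 was followed by Fdps (r = 0.998), Exosc4 and Atp9b, and Hspa5 1416064_a_at by Srd5a3 (0.999), Sf3b3 and Vdac2. Hspa8 was followed by Rps4x (0.996), Eif3m and Rpl10a, which encode a ribosomal protein, an initiation factor subunit and another ribosomal protein. Hsp90aa1 was followed by Nip7 (0.998), Hspd1 by Ndufc1 (1.00), Hspe1 by Gna12 (0.993), Dnaja1 1416288_at by Arrb2 (0.996) and Dnajb1 1416755_at by Lhx9 (0.979).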

How the data were processed

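Per the submitters' processing notes, the authors made the deposited linear intensity values, 1 signal per probe set, with MAS5 (version not given in the sources used here). Other deposited files, of scanner settings, were used only for scan days and stations. From the signals, log2(signal + pseudocount) was computed with a pseudocount equal to a design's 25th percentile (27.0 on MOE430A, 140.0 on MOE430B), so that differences of dim genes are understated. Probe sets at or above the median of mean log2 values entered moderated linear models (R 4.3.3, limma 3.58.1, eBayes with trend), with p-values adjusted by Benjamini-Hochberg within each design at 0.05, after the code was tested on simulated data. The 64 control probe sets of each design were left out. "At least" folds set the bright group's mean log2 signal against the mean of the higher of bound and signal on each dim array. Symbols came from the platform annotation, and 20351 of 20380 single symbols on MOE430A and 14486 of 14661 on MOE430B matched RefSeq (GRCm38.p6). The number of arrays limits the precision. Members, lists and tests were chosen with earlier results of these data known. All member probe sets were named, for each list and comparison the 3 genes with the smallest p could be, and for each member the 3 most correlated genes. Alternatives were the pseudocount, the filter, the scaling, the variance model, the covariate, MZ1468 alone, and leaving out each sample.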

Additional observations from a re-analysis of the deposited data

Results flagged for a closer look

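Among the 4 MZ1468 samples, Dnajb1 1416756_at was set apart by CD49+ replicate 3, with a signal of 104 (log2 value 7.03) where the other 3 gave 1857 to 2765. The gap to the nearest sample was 0.871 of the range and exceeded Dixon's critical value for 4 samples. Chance flags about 1 in 20 such sets, and 18 were screened. The other Dnajb1 probe set gave 10545 in that sample, within the range of the other 3.

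Hspa5 1416064_a_at differed between CD49+ and CD49- samples by -8.64 in MZ1484 and by 0.97 in MZ1468. The test of the difference between the submissions, chosen after seeing the data, gave 9.62 ± 0.95 (SE; limma, adjusted p = 0.0281), with 245 of 11313 MOE430A probe sets (2.17%) and 0 of 11256 on MOE430B past the threshold (2314 and 1301 at an unadjusted p under 0.05). It rests on 1 MZ1484 sample of each group. CD49+ replicate 1 was at 5.52, below its bound of 149, so that -8.64 and 9.62 depend on the pseudocount and support nothing further. For Hspa5 1427464_s_at the same test gave 2.53 ± 1.42 (adjusted p = 0.408), and for Dnaja1 1460179_at -5.23 ± 0.92 (adjusted p = 0.0608).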

How the results depend on the processing

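By CD49, 0 probe sets of either design passed under every alternative run, including the submission as a block, with 80 to 655 on MOE430A and 192 to 977 on MOE430B at an unadjusted p under 0.05. By submission, the 839 calls on MOE430A became 319 with no filter and 559 with the pseudocount at the median signal, and 0 to 1298 when 1 sample was left out. The 45 calls on MOE430B became 18 with median centring (9 higher, 9 lower, against 34 and 11), 176 with no variance trend, 95 with a pseudocount of 1, 12 with the pseudocount at the median signal, 149 with the top 25% by mean and 148 without the CD49 term, and 0 to 28 when 1 sample was left out. The cause was not tested. The 2 chaperone calls are given above; Hspa5 1427464_s_at also lost its call with no filter (4.18, adjusted p = 0.081) and with the pseudocount at the median signal (3.46, 0.066). Of 302 member values under settings that kept all samples or MZ1468 alone, 285 kept direction and side of the threshold, 4 lost the call and 13 changed sign. Sign changes by CD49 were, with MZ1468 alone, Hspa5 1416064_a_at (0.97) and 1447824_x_at (0.83), Hspa8 1420623_x_at (-0.16) and Hsp90aa1 1438902_a_at (0.32), with median centring, Hspa8 1420622_a_at (0.10) and Hsp90aa1 1438902_a_at (0.022), with quantile normalisation, Hspa8 1420623_x_at (-0.0074), and with the pseudocount at the median signal, Hspa5 1447824_x_at (0.0016). By submission they were, with median centring, Hspe1 1422579_at (-0.19) and Hsp90aa1 1441827_x_at (-0.057), and, with quantile normalisation, Hspa8 1420623_x_at (0.011), Hspe1 1450668_s_at (0.24) and Hsp90aa1 1441827_x_at (-0.47). Leaving out 1 sample changed a sign by CD49 for Hsph1 1425993_a_at (-1.40 to 3.66), Hspa5 1416064_a_at (-3.65 to 0.47), 1427464_s_at (-0.17 to 2.72) and 1447824_x_at (-0.60 to 0.55), Hspa8 1420622_a_at (-0.19 to 0.11) and 1420623_x_at (-0.17 to 0.17), Hsp90aa1 1438902_a_at (-0.32 to 0.34), Hspe1 1450668_s_at (-0.016 to 0.10), Dnaja1 1416288_at (-0.90 to 0.033) and Dnajb1 1416755_at (-0.19 to 0.34), and by submission for Hspa5 1416064_a_at (-1.52 to 8.09) and 1447824_x_at (-0.84 to 1.76), Hspe1 1450668_s_at (-0.14 to 0.058), Hsp90aa1 1441827_x_at (-0.61 to 0.68) and Dnaja1 1460179_at (-0.57 to 4.66) and 1459835_s_at (-0.59 to 1.06). Leaving out a replicate 1 leaves MZ1484 with 1 sample, assumed to vary like the others. In 3 fits without 1 sample a chaperone probe set passed that had not before: Hspa5 1416064_a_at (8.09) and Dnaja1 1416288_at (1.85) without CD49- replicate 1, and Dnaja1 1460179_at (4.66) without CD49+ replicate 1. No paired analysis was possible because no sample number in the labels is shared by both groups (replicate numbers here follow accession order and only name samples), and the block that was run is the submission. Signals near the bound limit what Hspa1b and the dim probe sets can show.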
